A study of Mus musculus with 12 samples.

Results

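The genes described here are 6 matrix metalloproteinases (Mmp8, Mmp9, Mmp12, Mmp13, Mmp14 and Mmp19) and 2 of their tissue inhibitors (Timp1 and Timp2), chosen by name and matched by gene identifier in a table of 27179 genes. All 8 were found and all 8 passed the filter on low counts in every comparison. Matrix metalloproteinases are zinc enzymes that cut collagens, elastin, gelatin and other matrix proteins, and also cytokines, chemokines and surface receptors. They are made as inactive proenzymes that must be cleaved or unfolded to become active, and the tissue inhibitors of metalloproteinases (TIMPs) bind the active site and block it. Macrophages and dendritic cells use these enzymes to cross basement membranes and to remodel tissue, and several members are also stored in neutrophil granules.

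RNA had been sequenced from dendritic cells, which present antigen to T cells, raised from bone marrow over 7 days in medium with 10% supernatant of X-63 cells as a source of the growth factor GM-CSF, and from exosomes, the small vesicles that those cultures shed into their medium. All 6 mice were C57Bl/6 by the labels' protocol. They comprised 3 wild-type (WT) mice (33 and 42, female, and 46, male) and 3 males (151, 152 and 153) whose labels read double knock-out of Sidt1 with Sidt2, relatives of a nematode transporter of double-stranded RNA. The labels give neither their age nor how the genes were targeted. Each mouse gave 1 cell library and 1 exosome library, so each of the 4 groups held 3 libraries. RNA of cells and of vesicles was extracted by different reagents, so extraction and compartment cannot be told apart, and serum and X-63 supernatant are further possible sources of vesicles. In these bulk samples fewer cells of a type and less RNA per cell cannot be told apart either.

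Total counts ran from 7215083 to 32273898 per library, and the upper limit behind a count of 0, taken as 3 counts, was 0.093 to 0.416 CPM (reads of a gene scaled to a common library size). Sidt2 stood at 171 to 317 CPM in the WT libraries and at 0.645 to 2.36 CPM in those labelled double knock-out (DKO), but Sidt1 went against the label, with 0 to 4 counts in WT libraries and 309 to 1722 counts in those labelled DKO. The libraries are therefore called by their label. The WT exosomes of mouse 33 lay at 56.42 on the second principal component of the 1000 most variable genes, which held 16.3% of their variance, whereas the other libraries lay between -26.69 and 12.76. Each of the 12 dendritic cell markers looked at was above 1 CPM in at least 1 library of both cell groups. Of 10 stromal markers, which include Col1a1 and Pdgfra, the summed level was at most 8.89 CPM in any library.

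Mmp12, the macrophage elastase, was by far the most abundant member. It alone took 1.04% (95% Wilson interval 1.032 to 1.046) to 1.88% (1.877 to 1.886) of all counts of a library, and between 84.7% and 91.1% of the counts of the 8 members together. Compared per length, in TPM (counts divided by gene length and scaled to a common sum), Mmp12 stood at 5958 ± 852 TPM in WT cells (SD, n = 3), the 14th highest of all genes in the table, and at 8442 ± 425 TPM in cells labelled DKO, the 8th highest. Mmp8, a collagenase first known from neutrophil granules, followed at 788 ± 63.7 TPM in WT cells and 932 ± 163 TPM in cells labelled DKO. Mmp12 thus lay 6.95 to 12.1 times above Mmp8 in every library.

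The other members were lower again. In WT cells Mmp19 stood at 163 ± 18.6 TPM, Mmp13, a collagenase of cartilage and bone, at 113 ± 11.7 TPM, and Mmp14, a membrane-anchored enzyme that activates pro-Mmp2, at 100 ± 10.4 TPM. Mmp13 and Mmp14 overlapped between these libraries and are not ordered, and the other neighbours in the order did not overlap. Timp2 stood at 42.4 ± 6.34 TPM, the gelatinase Mmp9 at 28.9 ± 5.13 TPM and Timp1 at 11.7 ± 2.46 TPM. Timp1 rested on only 24 to 240 counts per library. In cells labelled DKO Mmp13 (210 ± 31.4 TPM) and Mmp19 (205 ± 38.2 TPM) overlapped, and in exosomes of either genotype Timp2 had a higher mean than Mmp14, the reverse of their order in cells.

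Reads of 2 members may include reads of a neighbour, since the strand setting of the counting is not given. Exons of Mmp19 (GRCm38 chromosome 10, 128790910 to 128800827) share 1001 bases with Tmem198b and Gm47093 on the opposite strand, and Tmem198b itself reached at most 14.7 CPM. Exons of Mmp12 (chromosome 9, 7344397 to 7360461) share 157 bases with Mmp1b, which reached at most 1.47 CPM. The exons of the other members, Mmp8 (chromosome 9, 7558429 to 7568486), Mmp13 (chromosome 9, 7272514 to 7283333), Mmp9 (chromosome 2, 164940326 to 164955850), Mmp14 (chromosome 14, 54431598 to 54442456), Timp1 (chromosome X, 20870166 to 20874737) and Timp2 (chromosome 11, 118301061 to 118355411), overlap no exon of another gene in the annotation.

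**Figure D1:**
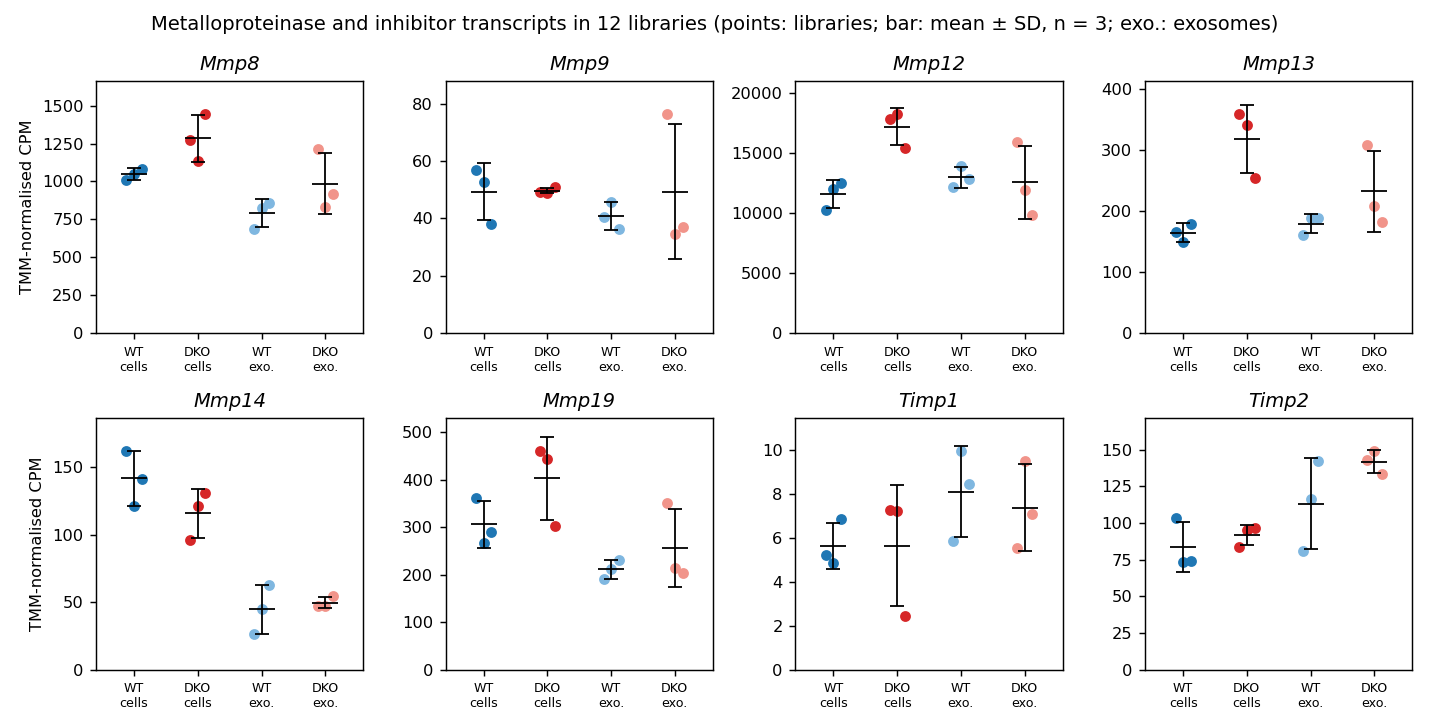
TMM-normalised CPM of each member (vertical axes, linear and starting at 0) in WT and DKO-labelled cells and exosomes; points are the 3 libraries of a group and bars the mean ± SD. Mmp14 is lower in every exosome library than in every cell library, and Mmp12 and Mmp13 are higher in the 3 cell libraries labelled DKO than in the 3 WT cell libraries.

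Exosomes were set against the cells of the same genotype, which asks how the transcript content of the vesicles differed from that of their source. Mmp14 was 3.06-fold lower in WT exosomes and Mmp19 fell by less, whereas Mmp12, Mmp8, Mmp13 and Mmp9 stayed within 1.28-fold of their level in cells and did not pass the test. The inhibitors Timp1 and Timp2 had higher mean CPM in WT exosomes but were not called. In TPM their means were not higher there (Timp2 42.4 in cells and 39.8 in exosomes, Timp1 11.7 in each). In total 2 of the 8 members were called in WT (adjusted p below 0.05 by edgeR), both lower, beside 38.3% of all 12829 genes called and 19.6% called lower, and the median log2 fold change of the 8 was -0.02, as against -0.015 over all genes.

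For the membrane-anchored enzyme Mmp14 the WT cells of mice 33, 42 and 46 held 162, 122 and 141 CPM and their exosomes 26.3, 44.9 and 62.9 CPM. All exosome libraries thus lay below all cell libraries, and mouse 33 had the highest cell and the lowest exosome level. The log2 fold change was -1.61 ± 0.29 (SE; edgeR adjusted p = 0.00580). In mice 151, 152 and 153 the level went from 95.9, 121 and 131 CPM in cells to 47.2, 47.5 and 54.6 CPM in exosomes. Again the groups did not overlap, with a log2 fold change of -1.20 ± 0.15 (edgeR adjusted p = 7.89e-05). The fall of Mmp14 kept its call in 13 of 13 alternatives in WT and in 13 of 13 in the mice labelled DKO.

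Mmp19, an enzyme of basement membrane and connective tissue substrates, stood at 362, 267 and 290 CPM in cells of mice 33, 42 and 46 and at 191, 212 and 231 CPM in their exosomes. The exosomes lay below the cells without overlap, by a log2 fold change of -0.48 ± 0.16 (edgeR adjusted p = 0.0467). In the mice labelled DKO it went from 461, 443 and 303 CPM to 351, 215 and 203 CPM, and here the exosomes of mouse 151 overlapped the cells of mouse 153. The log2 fold change was -0.62 ± 0.21 (edgeR adjusted p = 0.0318). Both calls lay near the threshold. In WT the call was lost with the mouse as a block (edgeR adjusted p = 0.0978), in the fit on all libraries (0.0693) and on leaving out cell library 33 (0.113), 42 (0.0734) or 46 (0.110) or exosome library 33 (0.0728) or 42 (0.129). In DKO-labelled mice it was lost on leaving out cell library 151 (edgeR adjusted p = 0.121) or 152 (0.0979) or exosome library 152 (0.143) or 153 (0.120).

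Timp2 is both an inhibitor and, bound to Mmp14 at the cell surface, part of the complex that activates pro-Mmp2. In mice 33, 42 and 46 the cells held 103, 73.6 and 74.2 CPM and the exosomes 80.7, 117 and 142 CPM, so mice 42 and 46 were higher in exosomes and mouse 33 was lower. The log2 fold change of 0.49 ± 0.23 was not called (edgeR adjusted p = 0.135), and it was 0.70 and called without the exosomes of mouse 33 (adjusted p = 0.0181). In mice 151, 152 and 153 Timp2 rose from 83.7, 94.9 and 96.6 CPM in cells to 143, 149 and 133 CPM in exosomes. These groups did not overlap and differed by 0.65 ± 0.12 on the log2 scale (edgeR adjusted p = 0.000912). Timp1, an inhibitor of most secreted members, had per-mouse log2 differences of -0.39 to 1.53 and was not called in either genotype (edgeR adjusted p = 0.145 in WT and 0.416 in DKO-labelled mice), although without the WT exosomes of mouse 33 it was (log2 fold change 0.78, adjusted p = 0.0321).

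Because a ratio of 2 genes within a library does not depend on how libraries are scaled, Mmp14 was also set against Timp2, a pair chosen after their values were seen. Per length, Mmp14 stood at 2.20 to 2.66 times Timp2 in WT cells and at 1.60 to 1.89 times in cells labelled DKO. In exosomes the ratio was 0.455 to 0.617 in WT and 0.444 to 0.572 in DKO-labelled mice. It was lower in exosomes in 6 of 6 mice, by 2.00 ± 0.21 (SD) on the log2 scale, with a range of -2.27 to -1.72, a description of the fall of Mmp14 and the level of Timp2 given above and not a separate result. Between genotypes the cell libraries did not overlap in this ratio and differed by -0.44 on the log2 scale. The exosome libraries overlapped (difference -0.12). Because the pair was chosen after its values were seen, no p-value is given for it.

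**Figure D2:**
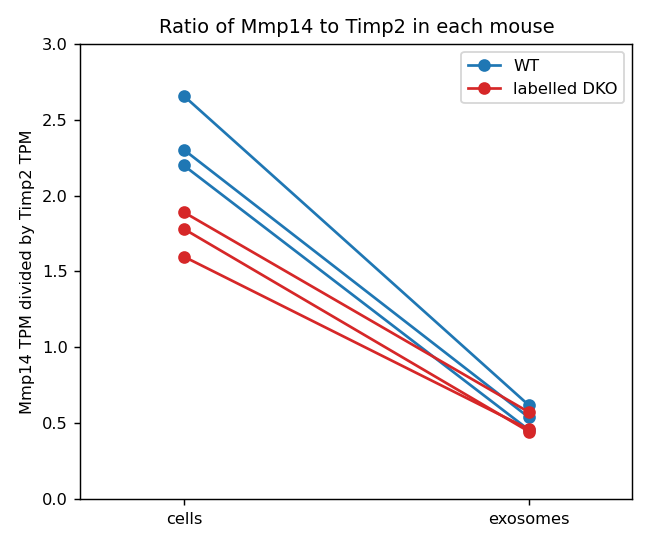
Level of Mmp14 divided by that of Timp2, both in TPM (vertical axis, linear from 0), in the cells and the exosomes of each mouse; a line joins the 2 libraries of a mouse. All 6 lines fall, from 1.60 to 2.66 in cells to 0.444 to 0.617 in exosomes.

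For Mmp12, Mmp13 and Mmp8 the exosome level in the mice labelled DKO was highest in mouse 151. Mmp12 stood at 17891, 18292 and 15475 CPM in cells of mice 151, 152 and 153 and at 15912, 11942 and 9885 CPM in their exosomes. The level was lower in exosomes in all 3 mice, with a log2 fold change of -0.43 ± 0.19 in the fit without pairing (edgeR adjusted p = 0.0811). With the mouse as a block it was called (-0.45, edgeR adjusted p = 0.0332), as it was without the exosomes of mouse 151 (-0.63, adjusted p = 0.00878), under total-count scaling (-0.57, adjusted p = 0.0117) and by DESeq2 (-0.43, adjusted p = 0.0251). Mmp13 (359, 341 and 254 CPM in cells against 308, 208 and 182 CPM in exosomes) and Mmp8 (1272, 1133 and 1446 CPM against 1211, 831 and 916 CPM) had the same highest exosome library. Mmp13 changed by -0.42 ± 0.19 (edgeR adjusted p = 0.0897, with the mouse as a block 0.00509) and Mmp8 by -0.36 ± 0.16 (0.0941, with the mouse as a block 0.0325). Total-count scaling also called Mmp13 (edgeR adjusted p = 0.0193) and Mmp8 (0.0243), and the fit with no filter called Mmp13 (0.00749). Without the block 3 of the 8 members were called in the mice labelled DKO, 1 higher and 2 lower, beside 47.5% of all 12316 genes tested (23.7% in each direction), and the median of the 8 was -0.39, beside -0.012 over all genes. With the block 6 members were called, beside 6305 of 12316 genes, and without the exosomes of mouse 151 the count was 7, beside 5675 of 12331 genes. The libraries of 2 members did not overlap in the complete set, beside 58.3% of all genes.

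In WT mice none of these 3 enzymes was called. For Mmp12 the cells of mice 33, 42 and 46 held 10294, 12035 and 12489 CPM and the exosomes 12188, 13936 and 12871 CPM, so each mouse was higher in exosomes, by 0.04 to 0.24 on the log2 scale (log2 fold change 0.22 ± 0.15, edgeR adjusted p = 0.282). Under scaling by total counts, which moved the median of all genes from -0.015 to -0.387, that value turned to -0.16 and that of Mmp13 to -0.19, so that all 3 were then negative. Mmp8, at 1007, 1048 and 1085 CPM in cells, stood at 684, 825 and 859 CPM in exosomes, below every cell library, and was not called (-0.36 ± 0.15, edgeR adjusted p = 0.0887), though 2 of 13 alternatives called it. Mmp13 (0.18 ± 0.14, adjusted p = 0.351) and Mmp9, the gelatinase (-0.22 ± 0.20, adjusted p = 0.415), overlapped between compartments. Of the 8 members 4 had WT libraries that did not overlap, 1 above and 3 below, beside 55.4% of all genes. In DKO-labelled mice Mmp9 stood at 76.5 CPM in the exosomes of mouse 151 and at 34.5 and 37.1 CPM in those of mice 152 and 153, around a cell level of 49.0 to 50.9 CPM (log2 fold change 0.02 ± 0.25, edgeR adjusted p = 0.958). In 1 fit that left out a library Mmp9 was called lower in these exosomes (edgeR adjusted p = 0.0234).

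**Figure D3:**
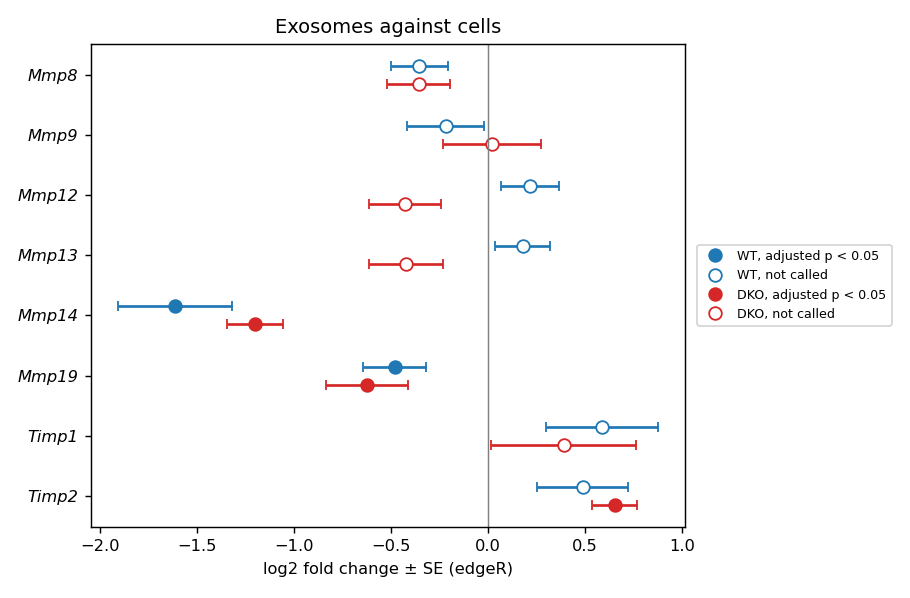
Log2 fold change of exosomes against cells (horizontal axis, ± SE) for the 8 members in WT and in DKO-labelled mice; filled points have an edgeR adjusted p below 0.05. Mmp14 lies farthest from 0 in both genotypes, at -1.61 and -1.20, and Timp2 is filled in the mice labelled DKO only, which was not itself called as a difference between genotypes.

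As a share of all counts the 8 members together took 1.48 ± 0.130% in WT cells, 2.05 ± 0.107% in cells labelled DKO, 1.27 ± 0.151% in WT exosomes and 1.39 ± 0.273% in exosomes labelled DKO (SD, n = 3). The share was lower in exosomes in 6 of 6 mice, with a mean difference of -0.433 ± 0.294 percentage points (SD; exact sign-flip permutation test, two-sided, p = 0.0313, the smallest that 6 mice allow). Between genotypes it differed by 0.567 points in cells, without overlap of the libraries (exact permutation test, two-sided, p = 0.1, the smallest that 3 against 3 allow), and by 0.117 points in exosomes (exact p = 0.6). Mmp12 made up most of each of these shares. The share is scaled by total counts, and under TMM scaling Mmp12 was higher in exosomes in all 3 WT mice. With mitochondrial and the 20 most abundant genes left out of the total, the difference was -0.396 points (exact sign-flip permutation test, two-sided, p = 0.0938).

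Apart from Mmp25 and Mmp2, the rest of the Mmp and Timp family was at low levels. Of 19 other family members 6 had enough counts to be tested between compartments. Mmp25, a membrane-anchored enzyme known from leukocytes, went from 131, 99.6 and 104 CPM in the WT cells of mice 33, 42 and 46 to 4.43, 6.40 and 3.37 CPM in their exosomes, a log2 fold change of -4.47 ± 0.28 (edgeR adjusted p = 0.000276). In the mice labelled DKO it went from 92.0, 75.4 and 52.3 CPM to 1.61, 2.35 and 2.89 CPM (-5.02 ± 0.27, adjusted p = 5.18e-07). The groups did not overlap in either genotype. Mmp23 (edgeR adjusted p = 0.0105 in WT and 0.00190 in DKO-labelled mice) and Mmp1b (0.0345 and 0.0262) were also called lower in each genotype, and the inhibitor Timp3 in WT (0.0148), all from levels of at most 5.78 CPM. The gelatinase Mmp2, the main substrate of the Mmp14 and Timp2 complex, stood at 27.5 to 43.7 CPM in cells and 14.4 to 47.5 CPM in exosomes and was not called (edgeR adjusted p = 0.0674 in WT and 0.819 in DKO-labelled mice).

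**Figure D4:**
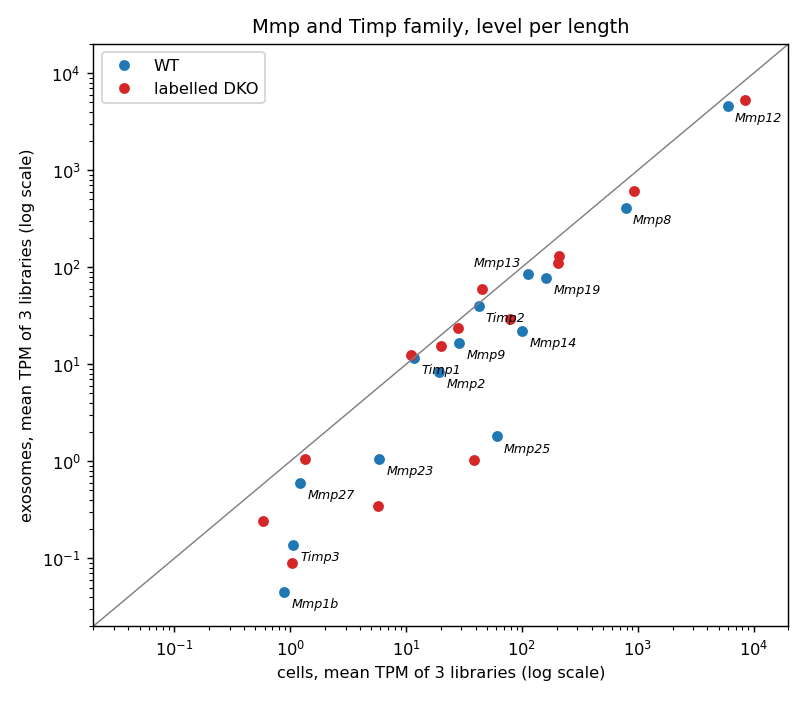
Mean level per length (TPM, log scales) in exosomes against that in cells for the 14 of 27 Mmp and Timp genes with a mean above 0.3 TPM in WT cells; blue points are WT and red points labelled DKO, each the mean of 3 libraries, and the grey line marks equal levels. Mmp25 lies farthest below the line, and Mmp12 is the highest gene on both axes.

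Genes that activate, localise or are cut by these enzymes are given as counts, to be read beside the 38.3% of all genes called in WT and the 47.5% called in DKO-labelled mice. Of 16 tested activators, regulators and receptors, 2 rose and 4 fell in WT exosomes (median -0.41). The urokinase receptor Plaur rose from 343 ± 55.1 to 594 ± 76.3 CPM (log2 fold change 0.85, edgeR adjusted p = 0.00824) and its ligand Plau, the plasminogen activator that starts a cascade able to activate several members, by 0.62 (adjusted p = 0.0122). Cd44, the hyaluronan receptor to which Mmp9 and Mmp14 can dock, fell from 531 ± 34.0 to 227 ± 31.6 CPM, and the integrin chain Itgb1 from 718 ± 54.4 to 180 ± 37.1 CPM. In the mice labelled DKO 1 of 16 rose, Plaur, and 4 fell, among them Cd44 (-1.18) and Itgb1 (-1.87). These shares, 6 of 16 and 5 of 16, were near and below those of all genes.

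Of 8 tested ADAM and ADAMTS proteases, the sister family that sheds surface proteins, 5 fell and 0 rose in WT exosomes (median -0.95). The largest fall was that of Adam19, from 33.4 ± 4.06 to 2.35 ± 0.546 CPM, and Adam10, a sheddase of Notch and cadherins, fell from 125 ± 6.84 to 44.7 ± 16.3 CPM. Of 7 tested in the mice labelled DKO 5 fell and Adam15 rose (0.46 ± 0.11, edgeR adjusted p = 0.00482). Of matrix substrates 6 of 12 fell in WT and 6 of 10 in DKO-labelled mice, with 0 rising in either, among them Thbs1, which encodes thrombospondin 1 (1931 ± 148 to 351 ± 47.4 CPM in WT), and fibronectin, Fn1 (377 ± 50.7 to 92.6 ± 21.2 CPM). Of 15 transcription factors known to induce metalloproteinase genes, 1 rose and 7 fell in WT and 1 rose and 6 fell in DKO-labelled mice. The AP-1 subunit Fosb fell to 0.672 ± 0.338 CPM in WT (log2 fold change -4.30, edgeR adjusted p = 0.000540), and Jund, another AP-1 subunit, rose from 222 ± 149 to 502 ± 64.5 CPM (edgeR adjusted p = 0.0462).

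Markers of several cell types moved with the compartment as well. Over all genes 19.6% were called lower and 18.7% higher in WT exosomes, and 23.7% in each direction in those labelled DKO. Of 12 dendritic cell markers 11 fell in WT exosomes and 12 of 12 in those labelled DKO, with summed levels of 10541 to 13446 CPM in WT cells, 3393 to 3849 CPM in WT exosomes, 7472 to 10659 CPM in cells labelled DKO and 2164 to 2465 CPM in their exosomes. The 14 macrophage markers summed to 9930 to 13385 CPM in WT cells and to 9607 to 12319 CPM in WT exosomes, mostly from Gpnmb, but 7 of the 14 were called lower and 2 higher in WT, and 9 lower and 2 higher in DKO-labelled mice. Csf1r, the receptor of the macrophage growth factor, was 3.84-fold lower in WT exosomes (edgeR adjusted p = 0.000775). The 15 neutrophil markers summed to 1202 to 2036 CPM in WT cells and 596 to 3870 CPM in WT exosomes, and to 1050 to 1523 and 719 to 1500 CPM in the corresponding libraries labelled DKO. Their part in the levels of the members was not tested.

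Libraries labelled DKO were then compared with WT libraries of the same compartment. These comparisons share their libraries with those of exosomes against cells. In cells 1 member was called, Mmp13, which was 1.97-fold higher in the libraries labelled DKO. That is 1 of 8, beside 0.404% of all 13106 genes called (0.267% higher), so few genes passed at all. Mmp12 and Mmp8, its neighbours on chromosome 9, also lay higher without overlap, which made 3 of 8 members whose libraries did not overlap, beside 17.4% of all genes. The median log2 fold change of the 8 was 0.24, beside -0.01 over all genes.

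For Mmp13 the WT cells of mice 33, 42 and 46 held 165, 149 and 179 CPM and the cells of mice 151, 152 and 153 held 359, 341 and 254 CPM, a log2 fold change of 0.98 ± 0.13 (edgeR adjusted p = 0.0118). Every library labelled DKO exceeded every WT library, and mouse 153 was the lowest of its group. Mmp12 went from 10294, 12035 and 12489 CPM to 17891, 18292 and 15475 CPM, a log2 fold change of 0.59 ± 0.12 that just missed the threshold (edgeR adjusted p = 0.0667). DESeq2 called it (0.60, adjusted p = 0.000407), as did edgeR with no filter (0.59, adjusted p = 0.00449) or on leaving out cell library 33 (0.51, adjusted p = 0.0310). The other alternatives did not, so 3 of 13 called Mmp12, with log2 values of 0.496 to 0.650 over all 13. On leaving out a library its edgeR adjusted p ran from 0.0310 to 0.476. Mmp8 went from 1007, 1048 and 1085 CPM to 1272, 1133 and 1446 CPM (0.32 ± 0.12, edgeR adjusted p = 0.408).

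The call of Mmp13 was not held by every fit. It was lost with sex as a covariate (0.86, edgeR adjusted p = 0.411), where the WT male side rests on mouse 46, in the fit on all libraries (0.96, adjusted p = 0.164), and on leaving out cell library 151 (0.89, adjusted p = 0.0787) or 152 (0.94, adjusted p = 0.146), while its direction held in 13 of 13 alternatives, with values of 0.86 to 1.10.

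Mmp13, Mmp12 and Mmp8 lie within 296 kilobases of each other, on the chromosome that also carries Sidt2, 38.4 to 38.7 megabases away. Of 46 tested genes that start in the first 20 megabases of chromosome 9, Mmp13 was the only called gene in cells, and 11 (23.9%) did not overlap between genotypes. Of 108 that start between 20 and 40 megabases, between this cluster and Sidt2, 1 was called and 15.7% did not overlap. Of 171 tested genes that start between 40 and 60 megabases, around Sidt2, 15 were called and 66 (38.6%) did not overlap. Of 402 that start above 60 megabases, 5 were called and 19.4% did not overlap. Over all 13106 genes 0.404% were called and 17.4% did not overlap. Whether linkage to the targeted locus had a part in the level of the 3 metalloproteinase genes was not tested.

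The 250 bases before the start sites of the 3 neighbours are printed here, from RefSeq on GRCm38.p6 (plus strand). These are the members whose libraries lay higher without overlap in cells labelled DKO. Mmp19, on chromosome 10, had a larger log2 fold change (0.42) than Mmp8 (0.32), but its libraries overlapped. The 3 windows follow. They are chr9:7272264-7272513 for Mmp13, chr9:7347124-7347373 for Mmp12, the second of its 2 annotated starts, and chr9:7558179-7558428 for Mmp8. The counts do not show which start of Mmp12 was used. The window printed for Mmp12 is the one of the 2 that holds the motif marked below. That of the upstream start, chr9:7344147-7344396, does not hold it and is not printed. Capitals mark the AP-1 motif TGAGTCA, or TGACTCA on the other strand, the site for Fos and Jun dimers.
Mmp13: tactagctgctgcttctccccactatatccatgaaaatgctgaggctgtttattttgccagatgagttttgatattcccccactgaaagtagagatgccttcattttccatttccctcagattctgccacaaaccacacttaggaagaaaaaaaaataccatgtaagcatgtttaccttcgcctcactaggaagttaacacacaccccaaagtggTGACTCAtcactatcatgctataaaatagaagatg
Mmp12: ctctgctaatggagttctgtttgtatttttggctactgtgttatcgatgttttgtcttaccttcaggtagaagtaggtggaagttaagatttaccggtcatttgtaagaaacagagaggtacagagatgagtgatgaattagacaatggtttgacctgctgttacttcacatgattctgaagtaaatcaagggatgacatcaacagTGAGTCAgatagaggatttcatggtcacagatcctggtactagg
Mmp8: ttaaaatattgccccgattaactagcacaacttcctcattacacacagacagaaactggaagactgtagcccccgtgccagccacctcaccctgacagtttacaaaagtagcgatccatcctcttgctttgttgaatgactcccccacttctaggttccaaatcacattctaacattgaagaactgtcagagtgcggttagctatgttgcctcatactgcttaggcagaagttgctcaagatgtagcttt

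The motif stood 35 to 29 bases before the start of Mmp13 (positions -35 to -29) and at positions -44 to -38 before that start of Mmp12. It was not in the window of Mmp8, nor in those of the upstream start of Mmp12 or of Mmp14, Timp1 and Timp2. Of 32851 promoters in the RefSeq table, 4.46% held it in a window of this length. RefSeq promoter entries were matched for 6 of the 8 members. The AP-1 subunits themselves were not called between genotypes in cells. Jund stood at -0.82 ± 0.46 (edgeR adjusted p = 0.561), Junb at -0.79 ± 0.34 (0.465), Fosb at -0.69 ± 0.19 (0.205) and Fos at -0.43 ± 0.18 (0.443). Jun stood nearer to no change at -0.28 ± 0.17 (0.566), and Fosl2 had the other sign, at 0.07 ± 0.12 (0.849). Of the 15 factors on that list 0 were called and 4 lay lower without overlap, beside 17.4% of all genes without overlap in either direction. Their median was -0.385, beside -0.010 over all genes.

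The other members were not called between genotypes in cells. Mmp19 differed by 0.42 ± 0.16 (edgeR adjusted p = 0.411), Mmp14 by -0.26 ± 0.14 (0.530), Timp2 by 0.16 ± 0.14 (0.690), Timp1 by 0.06 ± 0.32 (0.961) and Mmp9 by 0.04 ± 0.15 (0.942). Of the other genes of the pathway, 1 of 14 matrix substrates rose, Spp1, which encodes osteopontin and is cut by several members (3798 ± 138 to 5749 ± 588 CPM, edgeR adjusted p = 0.0425). None was called among 6 other family members, 16 activators and regulators and 8 ADAM proteases, where Plau came nearest (0.62 ± 0.12, adjusted p = 0.0612). Mmp25 had the other sign, at 111 ± 16.8 CPM in WT cells and 73.2 ± 19.9 CPM in cells labelled DKO (-0.58 ± 0.18, edgeR adjusted p = 0.305). It was the 1 of these 6 family members without overlap, beside 17.4% of all genes. In exosomes Mmp25 was also lower without overlap and not called (-1.08 ± 0.46, edgeR adjusted p = 0.552), beside 14.7% of all genes.

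Beside these results, markers of osteoclasts, bone-resorbing cells of the same lineage as macrophages, also differed in cells: Atp6v0d2, a proton pump subunit, rose from 672 ± 25.6 to 1117 ± 100 CPM (edgeR adjusted p = 0.0147) and Ctsk, which encodes cathepsin K, from 49.1 ± 7.32 to 86.0 ± 14.6 CPM (0.0348). That is 2 of 6 tested, beside 0.404% of all genes called (0.267% higher). Acp5, Itgb3 and Ocstamp were higher but not called, and Dcstamp had the other sign (-0.13 ± 0.15, edgeR adjusted p = 0.778). The 8 markers summed to 903 to 957 CPM in WT cells and 1301 to 1517 CPM in cells labelled DKO, mostly from Atp6v0d2. The defining markers Calcr and Oscar were below 1 CPM in every library. The macrophage markers summed to 9930 to 13385 and 11765 to 12847 CPM and the neutrophil markers to 1202 to 2036 and 1050 to 1523 CPM, with 0 called on either list. The counts without overlap that follow stand beside 17.4% of all genes, in either direction. Of 15 neutrophil markers 6 lay lower without overlap, among them Mpo, which encodes myeloperoxidase (-1.60 ± 0.37, edgeR adjusted p = 0.130). Of 6 tested mast cell and basophil markers 4 lay lower without overlap and 0 were called, with sums of 54.1 to 60.6 CPM in WT cells and 27.3 to 38.4 CPM in cells labelled DKO. The dendritic cell sums given above were 10541 to 13446 and 7472 to 10659 CPM, with 0 of 12 called. Of 8 B and plasma cell markers 7 lay lower and 0 higher without overlap, with a median log2 fold change of -1.62. Among these 8 markers 1 was called, Ighm, which was lower. Their sums were 99.3 to 193 CPM in WT cells and 46.0 to 70.1 CPM in cells labelled DKO. The part of these cell types in the level of Mmp13 was not tested.

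In exosomes no member was called between genotypes, and none was free of overlap, beside 0.0332% of all 12064 genes called (0.0249% higher and 0.00829% lower) and 14.7% free of overlap. Mmp13 came nearest, at 161, 188 and 189 CPM in WT exosomes and 308, 208 and 182 CPM in those labelled DKO (log2 fold change 0.36 ± 0.21, edgeR adjusted p = 0.559). Mmp12 stood at 12188, 13936 and 12871 CPM and at 15912, 11942 and 9885 CPM, so the libraries labelled DKO lay on both sides of WT (-0.06 ± 0.20, adjusted p = 0.922). The count of called members was 0 of 8 by edgeR at an adjusted p below 0.05, 0 at an unadjusted p below 0.05 and 0 by DESeq2.

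**Figure D5:**
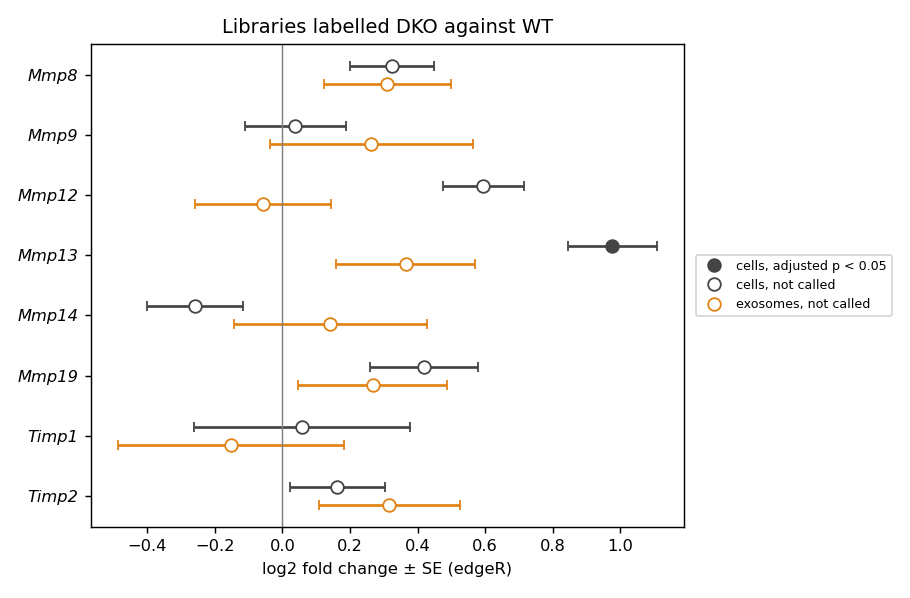
Log2 fold change of libraries labelled DKO against WT (horizontal axis, ± SE) for the 8 members in cells and in exosomes; filled points have an edgeR adjusted p below 0.05. Mmp13 in cells, at 0.98, is the only filled point, and Mmp12 lies at 0.59 in cells and at -0.06 in exosomes.

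Whether the exosome-to-cell difference depended on genotype was tested as an interaction over all 12 libraries. No member was called, nor was any of the 12970 genes (0% called; 776 had an unadjusted p below 0.05, and DESeq2 called 0 members and 0 genes). Mmp12 had the lowest p among the members, with an interaction of -0.63 ± 0.23 on the log2 scale (unadjusted p = 0.0172, edgeR adjusted p = 0.715). Within mice its exosomes stood at 0.24, 0.21 and 0.04 above cells in mice 33, 42 and 46, and at -0.17, -0.62 and -0.65 in mice 151, 152 and 153. Mmp13 followed with -0.59 ± 0.26 (unadjusted p = 0.0418, edgeR adjusted p = 0.715). Mmp14, which fell in both genotypes, had an interaction of 0.42 ± 0.34 (adjusted p = 0.731) and Timp2 0.18 ± 0.27 (0.847).

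Across the 12 libraries, which share scaling and differ in compartment, genotype and depth, Mmp12 and Mmp13 varied alike (Pearson r = 0.874 on log2 CPM, n = 12 libraries). Among 10643 genes compared, Mmp13 was the gene whose pattern was most like that of Mmp12, followed by Nnt, which encodes a mitochondrial transhydrogenase (r = 0.854), and Spp1 (r = 0.849). Nnt had a mean of 13.8 CPM in WT cells and 34.9 CPM in cells labelled DKO. In the corresponding exosomes its means were 17.1 and 23.9 CPM. Whether WT and DKO-labelled mice differed elsewhere in genetic background was not tested. The genes most like Mmp8 were Lipa, the lysosomal acid lipase (r = 0.929), Znrd1as (r = 0.927) and the lipoprotein lipase gene Lpl (r = 0.926). Between Mmp12 and Mmp14 the value was 0.123, and between Mmp14 and Timp2 it was -0.454. These values are descriptions and were given no test.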

How the data were processed

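Bulk RNA-seq of 12 libraries was analysed. The deposited tables hold raw counts, whole numbers for each gene beside the gene's length, which the authors made with featureCounts on mouse build mm10, per the submitters' processing notes. Not given in the sources used here: aligner, annotation and strand setting. The 12 tables of individual libraries held the same values as the series table. Symbols were matched by identifier for 25275 of 27179 genes. Groups, mouse and sex came from the labels. Levels are TMM-normalised CPM over all 12 libraries, and genes are compared with each other in TPM, computed from the deposited lengths.

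Differences were tested with edgeR 4.0.16 in R 4.3.3 (robust quasi-likelihood F test, TMM scaling, the default expression filter), with Benjamini-Hochberg adjustment over all genes and calls at an adjusted p below 0.05. The scripts were tested on simulated data. Each pairwise comparison was fitted on its 6 libraries and the interaction on 12. Alternatives were DESeq2 (1.42.0) or its size factors, total-count scaling, no filter, at least 1 CPM in 3 libraries, a fit on all 12 libraries, the mouse as a block, a sex covariate, and leaving out libraries in turn. The block applies because cells and exosomes with the same number come from the same mouse. Over genes, their deviations from the group means correlated at 0.003 (mouse 33), 0.082 (42), 0.093 (46), 0.159 (151), 0.123 (152) and 0.119 (153). All 8 members are named. From the other lists, called genes were named (at most 6 per list and comparison, by smallest p). The uncalled values of Mmp2, Dcstamp, Fos, Fosb, Fosl2, Jun, Junb, Jund, Mpo and Plau, and of Mmp25 between genotypes, were chosen after they were seen. For the 2 most abundant members the 3 genes with the highest correlation over libraries are given. The members and lists were chosen with earlier results of these data known. Intervals and limits for a count of 0 cover counting error only.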

Additional observations from a re-analysis of the deposited data

How the results depend on the processing

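The falls of Mmp14 in exosomes and the rise of Timp2 in exosomes labelled DKO kept direction and call under every alternative run. Called members numbered 1 in WT exosomes against cells with the mouse as a replicate block or in the fit on all libraries, and 1 to 3 on leaving out a library. In DKO-labelled mice they numbered 6 with the block or total-count scaling and 2 to 7 on leaving out a library, and 4 with no filter (Mmp13 added) or DESeq2 (Mmp12 added). Between genotypes in cells they numbered 2 with no filter or DESeq2, 0 in the fit on all libraries or with sex as a covariate, and 0 to 2 on leaving out a library. The block changed no member's call other than those named in the text.

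Genes called in WT exosomes against cells went from 4909 to between 2284 and 5522 on leaving out a library. Between genotypes in cells the count went from 53 to 202 (no filter), 192 (DESeq2), 7 (all libraries), 11 (sex) and 5 to 119 (leaving out a library), lowest without cell library 152 and highest without 33. Between genotypes in exosomes it went from 4 to 20, 33, 15, 14 and 3 to 144 under the same settings, highest without exosome library 46.

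Total-count scaling moved the median of all genes to -0.387 (WT exosomes against cells), -0.144 (the same in DKO-labelled mice), -0.109 (genotypes in cells) and 0.147 (genotypes in exosomes). It turned the direction of these uncalled log2 values: in WT exosomes against cells, Mmp12 (-0.157) and Mmp13 (-0.193); in DKO-labelled exosomes against cells, Mmp9 (-0.122); between genotypes, Mmp9 (-0.060) and Timp1 (-0.041) in cells and Mmp12 (0.087) in exosomes; and in the interaction, Mmp19 (0.095) and Timp1 (0.039). Mmp9 in DKO-labelled exosomes against cells was also negative with no filter (-0.004) and with the block (-0.079). With sex as a covariate Timp1 in cells turned to -0.211, and Mmp14 and Timp2 in exosomes to -0.348 and -0.012. The interaction of Mmp8 turned to -0.019 with DESeq2 and with its size factors. The causes were not tested.

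Leaving out a library turned these log2 values, uncalled in the complete set and given as ranges. Mmp9 in DKO-labelled exosomes against cells ran from -0.448 to 0.234, and 1 of these fits called it, lower in exosomes (edgeR adjusted p = 0.0234). Between genotypes in cells Mmp9 ran from -0.121 to 0.153 and Timp1 from -0.170 to 0.367. Between genotypes in exosomes Mmp9 ran from -0.192 to 0.497, Mmp12 from -0.254 to 0.088, Mmp14 from -0.096 to 0.488, Mmp19 from -0.019 to 0.410 and Timp1 from -0.357 to 0.029. In the interaction Mmp8 ran from -0.163 to 0.119, Mmp9 from -0.215 to 0.456, Timp1 from -0.509 to 0.038 and Timp2 from -0.010 to 0.373.

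The difference in share of counts between exosomes and cells was -0.396 points when mitochondrial and the 20 most abundant genes were left out of the total (exact p = 0.0938) and -0.498 to -0.349 without each mouse, where 5 mice allow no exact p under 0.0625. The share between genotypes in exosomes ran from -0.041 to 0.208. The log2 ratio of Mmp14 to Timp2, an alternative added after seeing the data, ran from -2.056 to -1.947 without each mouse. Low counts limit Timp1, and 3 libraries a group limit every comparison.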
